A study of Mus musculus with 8 samples.

Results

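The cells described here are 1942 Pf4+ Itga2b+ cells among 46159 Lineage- c-Kit+ bone marrow cells of 8 mice. A cell was taken from the deposited counts of unique molecular identifiers (UMIs) if it held 1000 or more UMIs with under 10% of them in mitochondrial genes. Of these, cells with 3 or more UMIs of Pf4, 1 or more of Itga2b and fewer than 2 of Car1 were kept. These 3 genes therefore chose the cells, and their levels are given below as a description only, with no test. P-values below measure the spread between these mice. The label under which the cells were sought was megakaryocyte progenitors.

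Megakaryocytes are the large marrow cells that shed platelets. Their progenitors arise from haematopoietic stem cells either through shared progenitors with the erythroid lineage or along a shorter route from platelet-biased stem cells, and they switch on platelet genes under the control of factors such as GATA1 and FLI1. Pf4 encodes platelet factor 4, a chemokine stored in platelet alpha granules, and Itga2b encodes the alpha subunit of the platelet fibrinogen receptor. Car1, carbonic anhydrase 1, belongs to the erythroid lineage, and the limit on it was set to leave erythroid progenitors out.

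All 8 mice were wild-type, and each library came from the marrow of 1 mouse. Every age had 1 male and 1 female. The young mice were 14 weeks old, the middle_aged mice 50 weeks, the old mice 78 weeks (male) and 79 weeks (female), and the very_old mice 95 weeks. Values per mouse are given below in this order, the male before the female of each age. The 4 old and very_old mice together are called older mice. A single male and a single female at each age limit the groups, and by the labels both very_old libraries belong to a library series of their own, so that an age of 95 weeks and the library series cannot be told apart. The passing cells of a library numbered 4912 to 7265.

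The number of Pf4+ Itga2b+ cells was 151 and 211 in the young mice, 189 and 192 in the middle_aged, 176 and 379 in the old and 320 and 324 in the very_old mice. They were sequenced to a median of 16739 and 15736 UMIs per cell in the young mice, 15829 and 16956.5 in the middle_aged, 14261.5 and 12630 in the old, and 14916 and 11603.5 in the very_old mice, so that depth was lower in each of the 4 older mice than in both young mice. No doublet caller was run. Cell barcodes shared by 2 libraries numbered 6 to 27 in each of the 28 pairs of libraries, and none of them belonged to a Pf4+ Itga2b+ cell in both.

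Many cells lay at an edge of the rule, most of them at that of Car1. Those with exactly 3 UMIs of Pf4 numbered 9 to 37 in a library, against 30 to 52 cells with 2 UMIs of Pf4 that met the rest of the rule. Cells with exactly 1 UMI of Itga2b numbered 9 to 66. Cells with exactly 1 UMI of Car1 numbered 85 of 151 and 110 of 211 in the young mice, 79 of 189 and 102 of 192 in the middle_aged, 59 of 176 and 126 of 379 in the old, and 126 of 320 and 107 of 324 in the very_old mice. They were thus most of the cells in both young mice and in the middle_aged female, and fewer in the 4 older mice. The limit on Car1 kept out a further 32 to 110 cells of a library that met the limits on Pf4 and Itga2b. The median number of Pf4 UMIs in a cell was 30 and 41 in the young mice, 29 and 35.5 in the middle_aged, 45 and 33 in the old, and 42 and 34 in the very_old mice.

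The defining markers that the rule did not use were present. Treml1, the receptor TLT-1 of platelet granules, had a UMI in 61.1% of the 1942 cells. Gp5, a subunit of the platelet receptor for von Willebrand factor, had one in 71.9%, and Gp9, another subunit of that receptor, in 62.9%. At least 1 of the 3 was detected in all but 168 cells (8.65%), and 664 cells held all 3. After thinning to 5500 UMIs, with shallower cells left out, the shares were 38.3%, 43.7% and 36.2%, against 0.282%, 0.709% and 1.45% of thinned Mpo-positive cells. These are cells with 10 or more UMIs of Mpo, the myeloperoxidase of granulocyte progenitors, and are a comparison level that holds free RNA together with any expression of their own. Counting all cells of the 8 mice together, Treml1 stood at 105 CPM, a count scaled to a fixed total of UMIs, in Pf4+ Itga2b+ cells and 0.63 CPM in Mpo-positive cells. The corresponding levels were 110 and 1.70 CPM for Gp5 and 84.0 and 2.54 CPM for Gp9. Pf4 itself stood at 4695 CPM against 13.4 CPM, and Itga2b at 388 CPM against 20.4 CPM. As cells chosen by their counts, they differ from the rest partly by construction, and no test was made of these levels.

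Several genes of late megakaryocytes and platelets were nearly absent, and others were low. Tubb1, the beta-tubulin of the platelet marginal band, Myl9, a myosin light chain, and P2ry12, a platelet ADP receptor, were at 0.387 CPM or less in each mouse. Dnm3 was detected in the old female alone, at 0.407 CPM. Gp6, the platelet collagen receptor, did not exceed 1.77 CPM in any mouse. Ppbp, a platelet granule chemokine, was at 5.39 to 22.2 CPM and Gp1ba, another subunit of the receptor for von Willebrand factor, at 5.53 to 13.3 CPM, so that both were present in each mouse. Cd3e, a T cell gene, had no UMI.

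Of the promoters of the 5 marker genes, those of Gp5 and Gp9 are shown because they hold GATAA, and that of Pf4, which chose the cells, because it does not. They are the 250 bases upstream of the RefSeq start in build GRCm38.p6, on the strand of the gene, at chr5:90772185-90772434 (+) for Pf4, chr16:30310782-30311031 (-) for Gp5 and chr6:87777820-87778069 (+) for Gp9. Capitals mark matches, on either strand, to GATAA, the core bound by GATA factors, and to GGAAG, a core bound by ETS factors such as FLI1.
Pf4: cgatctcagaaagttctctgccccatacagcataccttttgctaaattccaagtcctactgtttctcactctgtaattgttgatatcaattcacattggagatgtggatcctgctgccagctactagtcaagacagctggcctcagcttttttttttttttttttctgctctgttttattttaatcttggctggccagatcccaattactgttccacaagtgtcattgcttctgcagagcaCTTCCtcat
Gp5: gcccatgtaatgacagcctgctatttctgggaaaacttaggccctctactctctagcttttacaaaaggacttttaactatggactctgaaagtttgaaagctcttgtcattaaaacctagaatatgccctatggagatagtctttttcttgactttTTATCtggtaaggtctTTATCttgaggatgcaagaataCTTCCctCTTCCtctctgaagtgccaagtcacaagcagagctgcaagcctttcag
Gp9: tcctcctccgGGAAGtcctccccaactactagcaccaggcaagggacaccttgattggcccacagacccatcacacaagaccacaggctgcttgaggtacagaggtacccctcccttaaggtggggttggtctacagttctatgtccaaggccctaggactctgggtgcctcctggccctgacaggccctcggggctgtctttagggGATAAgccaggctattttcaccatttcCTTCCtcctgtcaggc
The promoter of Gp5 held 2 matches to GATAA and 2 to GGAAG, that of Gp9 1 and 2, and that of Pf4 0 and 1. Those of Itga2b and Treml1, which are not printed, held 0 matches to GATAA and 4 and 1 to GGAAG. Among 32851 promoters of the same length, 22.6% held GATAA and 64.1% held GGAAG, and the 2 motifs do not overlap in these windows. A match is a description of letters and not of binding.

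The Pf4+ Itga2b+ cells formed a range of Pf4 levels. Cells with 3 to 9 UMIs of Pf4 numbered 475, those with 10 to 49 numbered 653, and those with 50 or more numbered 814. With each step, pooled over the mice, Treml1 was higher (38.9, 82.2 and 147 CPM), and so was Vwf (26.5, 68.1 and 175 CPM), which encodes von Willebrand factor. Cd9, a tetraspanin of the platelet surface, followed at 248, 494 and 829 CPM, and Itgb3, the partner chain of Itga2b, at 18.5, 40.3 and 72.2 CPM. Gp5 (71.9, 106 and 129 CPM) and Gp9 (60.7, 82.6 and 95.4 CPM) had shallower steps. The Mpo-cell genes went the other way. The granulocyte and monocyte list summed to 1470, 942 and 764 CPM, and Cpa3, a mast cell protease, stood at 101, 16.8 and 5.57 CPM. Hlf, a transcription factor of stem cells, was at 58.0, 29.6 and 24.0 CPM. Gata1 was nearly level across the steps at 57.9, 61.2 and 53.9 CPM. Cells with none of Treml1, Gp5 and Gp9 made up 20.2%, 8.27% and 2.21% of the 3 steps, so that the lowest step is the least certain by its markers. The median depth of the steps was 13060, 12105 and 16762.5 UMIs, and the steps were cut on the counts themselves, so these values have no test.

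**Figure D1:**
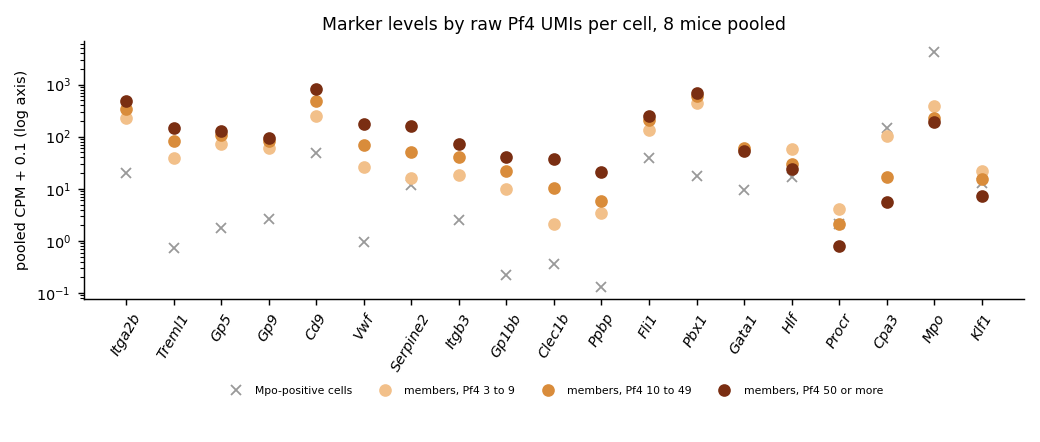
Level of 19 genes in Pf4+ Itga2b+ cells (members), cut by their raw Pf4 UMIs into 3 steps, and in Mpo-positive cells, on a log axis of CPM plus 0.1 with the cells of 8 mice pooled. Platelet genes such as Treml1 (38.9 to 147 CPM) and Vwf (26.5 to 175 CPM) are higher from step to step, whereas Cpa3 (101 to 5.57 CPM) and Klf1, an erythroid factor, are lower.

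The first question of the design is whether these cells took a larger share of the marrow progenitors with age. Their share of passing cells was 2.96% in the young male (95% Wilson interval 2.53 to 3.46%) and 2.99% in the young female (2.61 to 3.41%). It was 3.79% and 3.91% in the middle_aged mice, 3.37% and 6.28% in the old, and 5.75% and 4.46% in the very_old mice. All 4 older mice lay above both young mice, but the old male lay close to them and the older mice spread widely. Young mice had a mean of 2.97% ± 0.021 (SD, n = 2), and older mice one of 4.97% ± 1.31 (SD, n = 4), a difference of 2.0 points with p = 0.133 by an exact two-sided permutation test. The smallest p that 4 against 2 mice allow is 0.0667, so that no such difference can pass 0.05 here. The intervals cover counting error only.

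Over the 8 mice the share and age had Pearson's r = 0.73 (exact permutation p = 0.0262, adjusted 0.101) and a Spearman coefficient of 0.84 (exact permutation p = 0.0155, adjusted 0.0619), with adjustment over the 4 relations with age that were computed. Neither passed after adjustment. Without the 2 young mice, which lie farthest from the median age, r was 0.51, so the relation rests in part on them. Within the 6 mice of the first library series, r was 0.67 with an exact permutation p of 0.0667. With the share after thinning to 5000 UMIs, r was 0.61 over the 8 mice (exact permutation p = 0.102) and 0.62 within the first series (exact permutation p = 0.211). Without the limit on Car1 the values were 0.50 (exact permutation p = 0.195) and 0.41 (exact permutation p = 0.422). The share changed with thinning and with the limit on Car1. Thinning kept only cells with 5000 or more UMIs, 6723 of 7068 in the young female and 5211 of 6036 in the old female. Among the cells kept, the share at 5000 UMIs was 2.80, 2.86, 3.42, 4.16, 3.01, 5.44, 4.86 and 3.60% in the order above. The difference was 1.40 points. Without any limit on Car1, an alternative chosen after the data were seen, it was 4.56, 4.50, 4.73, 6.15, 3.99, 7.26, 7.43 and 5.16%, and the old male then lay below both young mice. The difference was then 1.43 points (exact permutation p = 0.267).

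**Figure D2:**
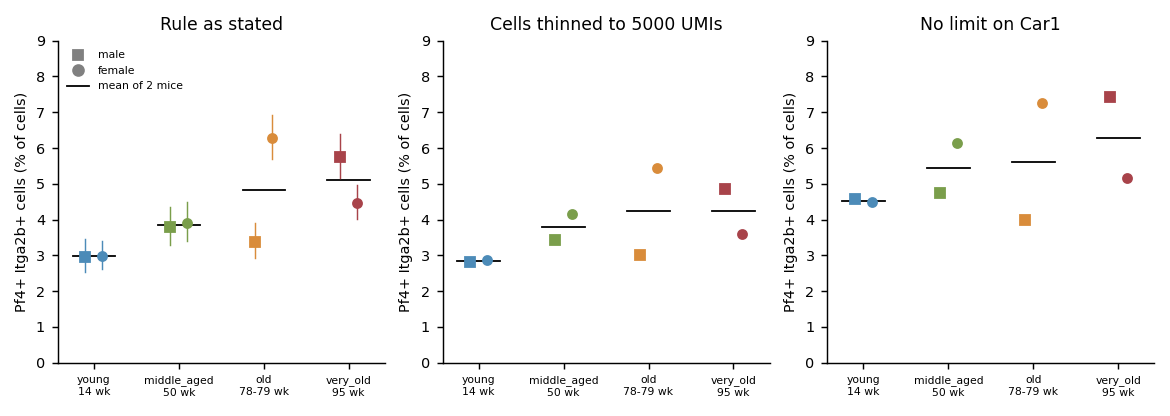
Pf4+ Itga2b+ cells as a percentage of passing cells in each mouse by the rule (left) and without the limit on Car1 (right). The middle panel gives the percentage among cells with 5000 or more UMIs, thinned to 5000. Squares are males, circles females, lines the mean of 2 mice and bars in the left panel 95% Wilson intervals. The old male lies nearest to the young mice in the left panel (3.37%) and below them in the right panel (3.99%).

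Neighbouring classes give a scale for this share. Gata1 Gata2 precursors, cells with both transcripts, Pf4 under 3 and Car1 under 2, made up 4.31 and 4.12% of cells in the young, 6.92 and 5.78% in the middle_aged, 4.54 and 5.38% in the old and 3.15 and 3.74% in the very_old mice. There were 0.686 and 0.725 Pf4+ Itga2b+ cells per precursor in the young mice, 0.548 and 0.676 in the middle_aged, 0.743 and 1.17 in the old and 1.83 and 1.19 in the very_old mice. This ratio was thus above both young mice in the 4 older mice and below them in the middle_aged mice, with an exact permutation p of 0.2 for older against young. Stem-like cells, with 1 or more UMIs of Hlf and Procr and Pf4 under 3, were 2.56 to 4.48% of cells in young and 3.99 to 12.2% in older mice, and Pf4+ Itga2b+ cells per stem-like cell overlapped between the ages (0.659 and 1.17 in young, 0.278 to 1.12 in older mice).

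The second question is which genes changed with age within the Pf4+ Itga2b+ cells. UMI counts were summed over these cells in each mouse and tested with edgeR's quasi-likelihood test, with p-values adjusted by Benjamini-Hochberg over 10521 genes. Levels per mouse are in CPM scaled by edgeR's TMM method. In older against young mice 39 genes rose (0.371% of genes tested) and 11 fell (0.105%). At an unadjusted p under 0.05 there were 1003 genes. In 49 of the 50 called genes all 4 older mice lay beyond both young mice, as they did in 18.9% of all genes tested. This separation follows in large part from the call itself and is no further evidence. It was also a condition for naming the largest rises and falls below. The median log2 fold change of all genes was -0.0045. As a sum over cells cannot tell fewer strongly expressing cells from less RNA in each cell, shares of cells are given further below.

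Aldh1a1, a retinaldehyde dehydrogenase used as a marker of stem and progenitor cells, had the smallest p. The gene lies at chr19:20492715-20643465 on the plus strand of GRCm38. Its level was 21.8 and 27.3 CPM in the young, 72.1 and 73.0 in the middle_aged, 115 and 84.9 in the old and 110 and 83.8 in the very_old mice. All 6 mice past 14 weeks were above 72 CPM and both young mice under 28. The log2 fold change of older against young was 1.96 (SE 0.15, edgeR adjusted p = 2.8e-07), and Aldh1a1 rose in each of the 3 later ages tested by itself. Clca3a1, a regulator of calcium-activated chloride channels, was at 5.17, 12.8, 35.9, 39.9, 62.7, 31.6, 40.0 and 37.7 CPM. The lowest later mouse was thus above the higher young mouse by more than the young mice differed from each other, and the rise in older mice was 2.13 (SE 0.28, edgeR adjusted p = 0.00044). Nupr1, a stress-induced chromatin protein, was at 4.80, 11.6, 38.1, 30.1, 45.4, 25.9, 36.5 and 29.1 CPM, with a rise of 1.94 (SE 0.25, edgeR adjusted p = 0.00044). Its middle_aged values lay within the range of the older mice.

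Plscr2, a phospholipid scramblase, was nearly absent in young mice (1.11 and 0.581 CPM) and stood at 10.6 and 5.03 CPM in the middle_aged, 23.2 and 14.1 in the old and 19.5 and 23.2 in the very_old mice. The fitted rise of 4.51 (SE 0.43, edgeR adjusted p = 9.9e-06) rests on 3 and 2 UMIs in the young mice. Clu, the secreted chaperone clusterin, rose by 1.98 (SE 0.27, edgeR adjusted p = 0.00066) from 4.80 and 13.4 CPM in young to between 27.5 and 59.0 CPM in older mice. Selenom, a selenoprotein of the endoplasmic reticulum, rose by 1.28 from 18.1 and 24.4 CPM to between 43.8 and 67.1 CPM (edgeR adjusted p = 0.00044). Smaller rises passed for S100a6, a calcium-binding protein (1.16), Cited4, a transcriptional coactivator (0.84), Arhgef12, a guanine nucleotide exchange factor (0.83), Nckap1, a subunit of the WAVE complex that drives actin branching (0.81), and Mt1, a metallothionein (0.80), with edgeR adjusted p between 0.0016 and 0.040. For these 5 genes the 2 young mice differed most for Mt1, at 50.2 and 103 CPM. In old mice alone only Cited4 of the 5 passed (0.99, edgeR adjusted p = 0.030). In very_old mice alone S100a6, Nckap1 and Mt1 did, and Arhgef12 passed at neither age. Without the young male the log2 fold change was 0.86 for S100a6, 0.55 for Cited4, 0.64 for Arhgef12, 0.56 for Nckap1 and 0.45 for Mt1. Nupr1, Clca3a1 and Plscr2 belong to a list of 6 genes picked because earlier results of these data had them higher in older stem-like cells, so their rises here are not independent evidence of direction. Of that list 3 rose and 1, Apoe, fell.

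**Figure D3:**
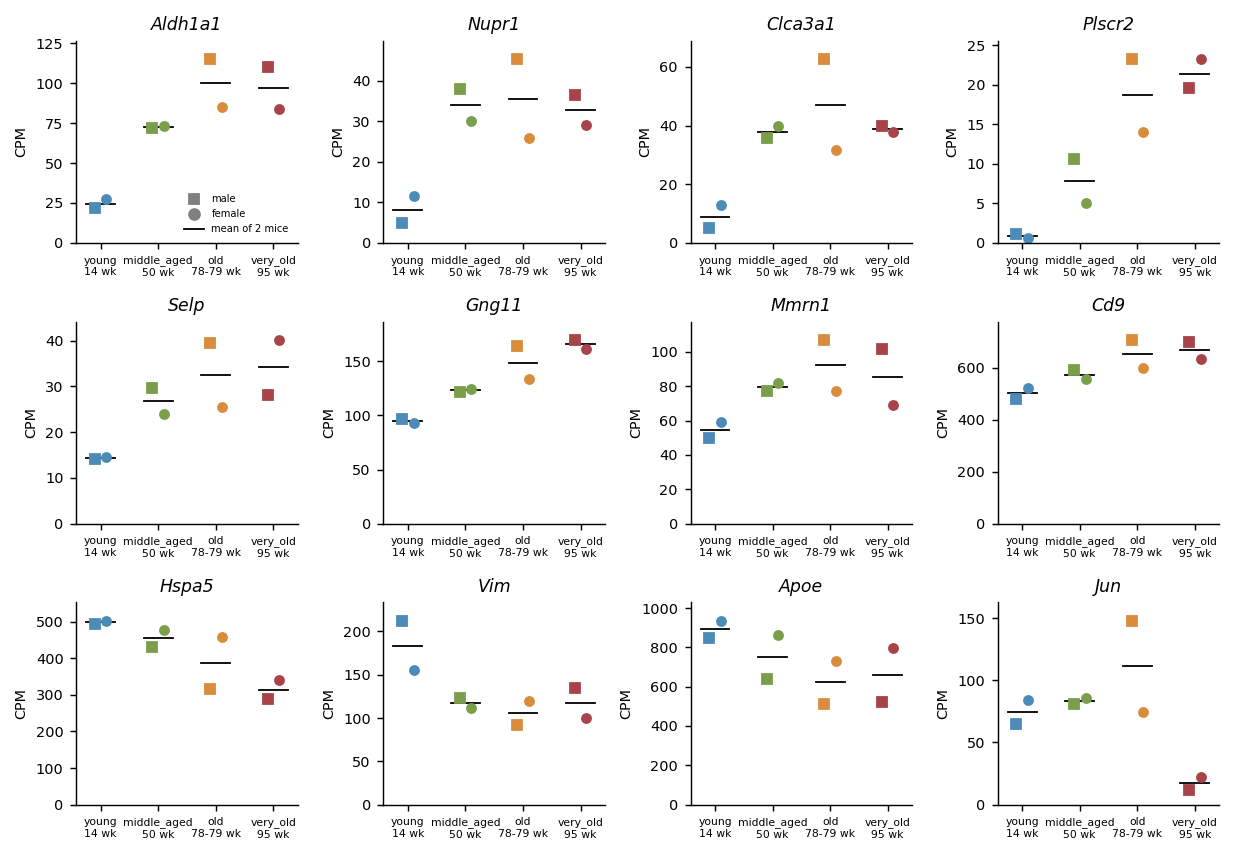
Level of 12 genes summed over the Pf4+ Itga2b+ cells of each mouse, in TMM-scaled CPM, by age. Squares are males, circles females and lines the mean of 2 mice. Aldh1a1, Nupr1, Clca3a1 and Plscr2 are already higher at 50 weeks, and Jun is low in the very_old mice (11.6 and 22.4 CPM).

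Among platelet genes, 3 of 13 receptors and adhesion molecules tested rose, where 0.371% of all genes did, none fell, and the median log2 fold change was 0.26. Selp, the adhesion molecule P-selectin of alpha granules, was at 14.0 and 14.5 CPM in the young, 29.7 and 23.9 in the middle_aged, 39.5 and 25.5 in the old and 28.2 and 40.2 in the very_old mice, without overlap between young and later ages. Its rise was 1.18 (SE 0.21, edgeR adjusted p = 0.010). Clec1b, the podoplanin receptor CLEC-2, was at 8.50, 13.9, 18.4, 23.1, 36.5, 25, 15.7 and 34.5 CPM, with a rise of 1.24 (SE 0.27, edgeR adjusted p = 0.047). The very_old male was close to the young female. Cd9 was at 480, 523, 589, 556, 707, 600, 700 and 635 CPM, with a rise of 0.39 (SE 0.09, edgeR adjusted p = 0.040). Against young mice the old mice alone did not pass for Selp (1.12, edgeR adjusted p = 0.064), Clec1b (1.38, 0.066) or Cd9 (0.38, 0.16). In very_old mice, whose age cannot be told apart from their library series, only Selp of the 3 passed (1.23, edgeR adjusted p = 0.013). Without the young male none of the 3 passed, with edgeR adjusted p of 0.13 for Selp, 0.36 for Clec1b and 0.81 for Cd9. The calls of all 3 were also lost in 2 smaller sets of cells, in which their sizes were not smaller by much or were larger. In cells without a stem-cell UMI the log2 fold change was 1.06 for Selp, 1.09 for Clec1b and 0.43 for Cd9, and in cells with under 5 UMIs of other lineages 1.31, 1.90 and 0.39.

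The marker receptors did not pass. Treml1 was at 86.4 and 96.2 CPM in young and 98 to 131 CPM in older mice (log2 difference 0.26, edgeR adjusted p = 0.39), Gp9 at 71.3 and 75.0 against 86.8 to 95.1 CPM (0.29, edgeR adjusted p = 0.42), and Gp5 at 113 and 112 against 102 to 118 CPM (-0.06, edgeR adjusted p = 0.92). Treml1 and Gp9 lay above both young mice in the 4 older mice, and Gp5 overlapped. Of the genes that chose the cells, Pf4 was at 3266, 4564, 3291, 4150, 5083, 5248, 5750 and 5218 CPM and Itga2b at 346, 375, 402, 390, 475, 390, 404 and 340 CPM. Pf4 was lowest in the young male and the middle_aged male.

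Of 10 granule and secreted proteins tested, 1 rose, with a median of 0.14. This was Mmrn1, multimerin 1, a carrier of factor V in alpha granules. It was at 49.9, 59.0, 77.1, 81.9, 107, 77.2, 102 and 69.0 CPM (0.67, SE 0.14, edgeR adjusted p = 0.033). Mmrn1 did not pass in old mice alone (0.71, edgeR adjusted p = 0.069) or in very_old mice alone (0.63, 0.083). Vwf stood at 56.5, 98.8, 78.7, 128, 147, 118, 128 and 120 CPM and did not pass (0.72, SE 0.17, edgeR adjusted p = 0.066), with the young female above the middle_aged male. Of 11 genes of platelet signalling and metabolism, 1 rose, with a median of 0.26. Gng11, a gamma subunit of G proteins, was at 96.8, 93.3, 122, 124, 164, 134, 170 and 162 CPM (0.72, SE 0.10, edgeR adjusted p = 0.00066). It was higher in each older mouse than in each middle_aged mouse, and in those than in the young mice. Rgs18, a platelet regulator of G protein signalling, passed in very_old against young mice (0.44, edgeR adjusted p = 0.041), from 306 and 290 CPM to 396 and 411 CPM. Its difference between the old and the very_old mice was not tested.

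Other lists held 0 or 1 call. As 0.371% of all genes rose and 0.105% fell, no call in a list of this size is what the background gives and says nothing about the list. Of 14 megakaryocyte transcription factors 0 passed, with a median of -0.03. Gata1 was at 61.7 and 60.2 CPM in young and 47.6 to 66.2 CPM in older mice, and Fli1 at 172 and 197 against 177 to 261 CPM. Of 10 genes of the cytoskeleton and proplatelets 0 passed (median 0.12). Vcl, vinculin, was the nearest to the threshold, at 49.5 and 52.0 CPM in young and 62.1 to 84.1 CPM in older mice (0.51, edgeR adjusted p = 0.098). Of 11 stem cell genes, only Myct1 passed, at 53.6, 42.4, 47.1, 47.0, 80.8, 63.1, 82.0 and 72.5 CPM (0.63, SE 0.11, edgeR adjusted p = 0.0086). The list's median was 0.27. Against young mice the old mice alone did not pass for Myct1 (0.58, edgeR adjusted p = 0.069), whereas the very_old mice did (0.69, 0.0080). The call of Myct1 was lost without the young male (0.71, edgeR adjusted p = 0.078), without the young female (0.56, 0.13), with DESeq2, without the sex term, and in cells without a stem-cell UMI or with under 5 UMIs of other lineages. Esam, an adhesion molecule, was at 15.5 and 27.0 CPM in young and 33.2 to 53.8 CPM in older mice (0.85, edgeR adjusted p = 0.073). Of 17 genes of class I histocompatibility and the interferon response, Ifitm1, an interferon-induced membrane protein, rose by 0.70 (edgeR adjusted p = 0.011), from 77.2 and 76.1 CPM to between 99.8 and 163 CPM, and the median was 0.06. The call of Ifitm1 was lost without the sex term and in cells without a stem-cell UMI or with under 5 UMIs of other lineages. Without the young male its log2 fold change was 0.58.

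Fewer genes fell. Vim, the intermediate filament vimentin, was at 212, 155, 123, 112, 91.8, 120, 134 and 100 CPM, a fall of 0.69 on the log2 scale (SE 0.12, edgeR adjusted p = 0.0086) with all later mice below both young mice. Hspa5, the chaperone BiP of the endoplasmic reticulum, was at 495, 503, 431, 478, 317, 459, 289 and 340 CPM and fell by 0.52 (edgeR adjusted p = 0.0082). Dnaja1, a co-chaperone of HSP70, fell by 0.42, from 361 and 405 CPM to between 234 and 318 CPM (edgeR adjusted p = 0.024). Hist1h2ac, a histone H2A gene, was at 36.2, 36.3, 21.2, 31.6, 16.2, 35.6, 6.96 and 8.63 CPM and fell by 1.32 (edgeR adjusted p = 0.00067). The old female matched the young mice in Hist1h2ac, and the very_old mice were lowest. Apoe, the lipid carrier apolipoprotein E, was at 847, 936, 638, 862, 511, 733, 522 and 799 CPM and fell by 0.50 (SE 0.09, edgeR adjusted p = 0.0081). At each of the 4 ages, the youngest included, the male was lower in Apoe than the female. Against young mice the old mice alone did not pass for Hist1h2ac (-0.45, edgeR adjusted p = 0.70), Hspa5 (-0.37, 0.26), Dnaja1 (-0.27, 0.53) or Banp (-0.30, 0.72), whereas the very_old mice, whose age cannot be told apart from their library series, did for all 4. Vim and Apoe passed in both. Tmsb10, an actin-sequestering peptide, fell by 0.36 and Banp, a nuclear DNA-binding protein, by 0.56, with edgeR adjusted p of 0.048 and 0.040. Banp lost its call without each of the 6 mice in turn, with edgeR adjusted p between 0.072 and 0.58. Tmsb10 lost it without each mouse except the very_old female, with values up to 0.61.

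The largest fall by fold among the named genes in older against young mice came from 1 cell. Cd74, the invariant chain of class II histocompatibility, was at 10.3, 67.7, 8.12, 13.6, 5.53, 8.35, 6.57 and 5.12 CPM, and the young female stood apart. Its fitted fall was 2.47 (edgeR adjusted p = 0.00044). In the young female 1 cell held 216 of the 233 Cd74 UMIs, which is 92.7%, and in that mouse 1 cell also held 55 of the 70 UMIs of H2-Aa. Without the cell with the most Cd74, an alternative chosen after the data were seen, Cd74 differed by -0.18 (edgeR adjusted p = 0.93). The called fall of Cd74 thus rested on that cell.

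Most single calls leaned on some mouse. Of 27 named genes called in older against young mice, 8 kept the call without each of the 6 mice in turn: Aldh1a1, Clca3a1, Plscr2, Nupr1, Clu, Selenom, Gng11 and Hist1h2ac. Each such fit keeps a very_old mouse, so that it cannot separate a call from the library series. Hist1h2ac alone of the 8 did not pass in old mice by themselves (-0.45, edgeR adjusted p = 0.70). The sizes of 4 of the 8 moved by more with a young mouse left out than with an older one. Without the young male and without the young female the log2 fold change was 1.15 and 3.32 for Clu, 1.27 and 3.03 for Nupr1, 1.53 and 3.16 for Clca3a1, and 0.92 and 1.72 for Selenom. Without the young male, 18 of the 27 were lost, among them Selp (1.11, edgeR adjusted p = 0.13), Mmrn1 (0.41, 0.71), Cd9 (0.26, 0.81), Vim (-0.50, 0.44), Apoe (-0.31, 0.66) and Hspa5 (-0.38, 0.48). Such a fit leaves 1 young mouse, whose spread is taken to be that of the other groups. Without the young female 64 genes rose and 31 fell, and without the young male 13 and 7. Without the old male 22 genes rose.

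Taken by age, 11 genes rose in middle_aged mice (0.105% of genes tested) and 3 fell (0.0285%), 17 rose in old mice (0.162%) and 4 fell (0.038%), and 37 rose in very_old mice (0.352%) and 20 fell (0.19%), all against the same 2 young mice. Unadjusted p-values under 0.05 numbered 638, 700 and 1147. Genes that rose at all 3 ages included Aldh1a1, Clca3a1, Nupr1, Clu, Plscr2 and Ifitm1. For Aldh1a1 the log2 fold changes were 1.54, 1.98 and 1.95, and for Gng11, which passed in old and very_old mice, they were 0.37, 0.63 and 0.80. Fcer1a, the alpha chain of the IgE receptor, rose in middle_aged and very_old mice, from 0.739 and 1.45 CPM in young to 9.36 and 7.39 CPM in middle_aged and 9.08 and 14.0 CPM in very_old mice. It was at 9.96 and 4.68 CPM in old mice and did not pass there (edgeR adjusted p = 0.069). The old mice share their library series with the young and middle_aged mice. Counts of calls depended on 1 mouse, since without the middle_aged male 1 gene rose in middle_aged mice and without the old male 5 rose in old mice.

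Falls called in the very_old mice included immediate early genes. Jun, a subunit of the AP-1 factor, was at 64.6, 84.0, 80.8, 86.0, 148, 74.5, 11.6 and 22.4 CPM, and the very_old mice lay far below all others (-2.20, edgeR adjusted p = 0.00061). Jund, another subunit, was at 53.3 and 49.3 CPM in very_old mice against 93.5 to 122 CPM in the other 6 (-0.95, edgeR adjusted p = 0.00082). The other 8 genes of the list that were tested did not pass. S100a8, a granulocyte protein, fell by 2.84 (edgeR adjusted p = 0.0052), from 8.13 and 14.2 CPM to 0.966 and 2.43 CPM. The genes called there that the naming rule did not take, chosen after their values were seen, included the heat shock proteins Hsph1 (-0.98) and Hspa8 (-0.47) and the histone Hist1h4d (-0.94). These contrasts are those that cannot be told apart from the library series.

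Transcripts of other lineages moved with some libraries. Cells with 2 or more UMIs of Mpo made up 43.0 and 35.1% of Pf4+ Itga2b+ cells in the young, 11.1 and 34.9% in the middle_aged, 31.8 and 31.9% in the old and 6.88 and 10.5% in the very_old mice. The middle_aged male and the very_old mice were thus lowest. Cells with under 5 UMIs in all of the granulocyte, mast cell and lymphoid lists made up 21.9 to 41.7% in the first library series and 69.4 and 71.6% in the very_old mice. In sum over the cells, the 14 granulocyte and monocyte genes nevertheless ranged from 417 to 1368 CPM, with young mice at 768 and 1141 CPM and very_old mice at 1368 and 604 CPM, and Mpo from 56.5 to 353 CPM. Mast cell genes summed to 92.0 and 37.8 CPM in young and 34.7 to 69.6 CPM in older mice, lymphoid genes to 39.6 to 62.8 CPM in all mice, plasma cell genes to 4.31 to 21.0 CPM, and macrophage genes to 7.38 to 36.6 CPM. Among the cells with under 5 such UMIs, 6 genes rose in older mice and 2 fell. The part of these transcripts in the other results was not tested further.

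None of the erythroid genes tested (11), granulocyte and monocyte genes (9), lymphoid genes (4), plasma cell genes (2) or macrophage genes (3) passed in older against young mice, as in lists this short the background alone would give. Of 4 mast cell genes Fcer1a rose (2.91, edgeR adjusted p = 0.0077), whereas the list's median was -0.83. The young level of Fcer1a rests on 2 and 5 UMIs, and its call was lost without the young male (2.50, edgeR adjusted p = 0.12), with Pf4 of 10 or more, after thinning to 5000 UMIs and in cells without a stem-cell UMI. All 4 older mice were above both young mice in Fcer1a in the step of 3 to 9 Pf4 UMIs, and 3 of 4 in the other 2 steps. Mcpt8 and Ms4a2, which mark basophils and mast cells, were at 6.10 to 18.1 CPM in young and 1.63 to 7.01 CPM in older mice. Klf1, an erythroid factor, was at 17.4 and 15.1 CPM in young and 7.74 to 13.2 CPM in older mice, without passing. The haemoglobin gene Hbb-bs ranged from 1.43 to 21.4 CPM, both in old mice.

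Cell cycle genes were present at all ages. All 20 S phase genes and all 18 genes of the G2 and M phases were tested, and 0 passed, which is near the share of all genes called. The S phase list had a median of -0.22 with a positive value for 1 gene of 20, and the G2 and M list a median of 0.10 with positive values for 16 of 18. The S phase list summed to 2309 and 2264 CPM in young and 1743 to 2193 CPM in older mice, and Mcm3, a subunit of the replicative helicase, stood at 261 and 221 against 182 to 218 CPM. Mki67, the proliferation marker Ki-67, had a UMI in 47.2 and 48.9% of cells thinned to 5500 UMIs in young mice and in 34.0 to 48.8% in older mice, against 27.9 to 38.8% of Mpo-positive cells over all mice.

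For genes chosen above by their rise, shares of cells in the same mice describe how the counts were spread over cells and are no further evidence of the rise. With every cell set to 5500 UMIs, 1850 of the 1942 cells remained, and 92 shallower cells were left out, 8 in the young, 12 in the middle_aged, 35 in the old and 37 in the very_old mice. Aldh1a1 was expected in 10.6 and 11.9% of cells in the young, 30.2 and 33.3% in the middle_aged, 47.8 and 35.6% in the old and 45.0 and 32.3% in the very_old mice, against 0.596 to 2.59% of Mpo-positive cells. The older mice lay 28.9 points above the young mice on average. In the raw data the shares were 26.5 and 26.1% in young and 52.2 to 78.4% in older mice, which were less deeply sequenced. Clca3a1 was expected in 3.33 and 6.31% in young and 14.2 to 23.6% in older mice, and Nupr1 in 2.11 and 5.28% against 10.2 to 15.7%, both with 1.58% or less of Mpo-positive cells in each mouse. Gng11 had 40.5 and 37.5% in young and 46.9 to 55.8% in older mice. In Mpo-positive cells Gng11 had 6.63 and 6.45% in young and 8.16 to 10.7% in older mice. Aldh1a1 had 0.596 and 1.63% there against 1.67 to 2.59%, and Nupr1 0.16 and 0.15% against 0.36 to 0.95%. For these 3 genes all 4 older mice thus lay above both young mice in Mpo-positive cells too. For Clca3a1 1 of the 4 did. Selenom had 9.80 and 10.8% in young and 17.7 to 24.6% in older mice, against 17.4 to 28.1% of Mpo-positive cells, and it was above the Mpo-positive cells of the same mouse in the very_old male (22.8 against 18.4%) and below them in the other 7 mice.

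**Figure D4:**
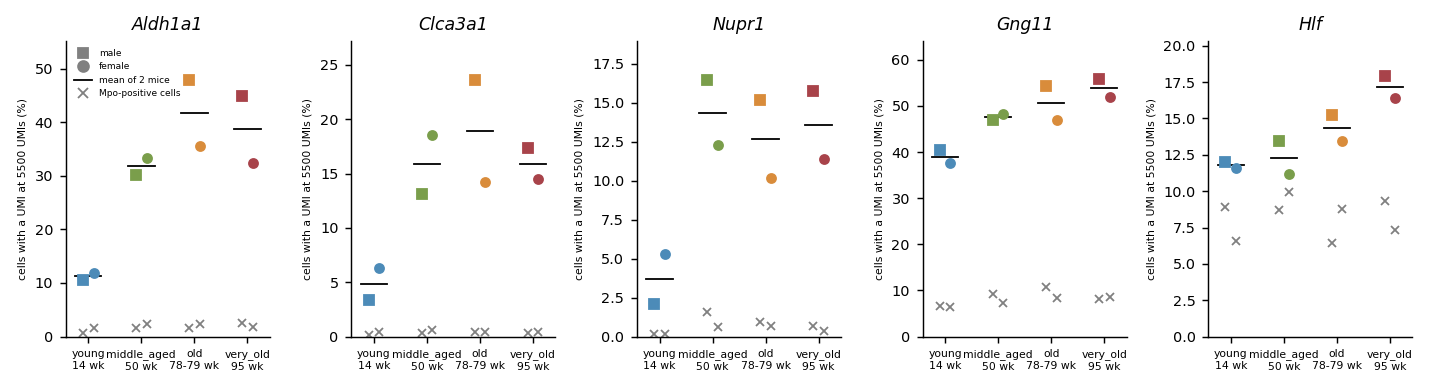
Share of Pf4+ Itga2b+ cells expected to hold a UMI of 5 genes at 5500 UMIs per cell, by mouse, with squares for males, circles for females and lines for the mean of 2 mice. Crosses are Mpo-positive cells of the same mice. Aldh1a1 goes from 10.6 and 11.9% in young mice to between 32.3 and 47.8% in older mice. Its crosses go from 0.596 and 1.63% to between 1.67 and 2.59%.

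Transcripts of stem cells were looked for in the same way. Cells expected to hold Hlf, Procr or Mecom at 5500 UMIs made up 20.2 and 18.1% in the young, 23.3 and 18.3% in the middle_aged, 25.4 and 20.7% in the old and 26.0 and 22.9% in the very_old mice, against 8.57 to 13.9% of Mpo-positive cells. All 4 older mice were above both young mice, by 4.65 points on average, with an exact permutation p of 0.133. Their relation with age, the fourth computed, had r = 0.72 (exact permutation p = 0.0504, adjusted 0.101). In unthinned cells the shares were 44.4, 38.9, 50.8, 40.1, 51.7, 37.2, 51.3 and 40.4% and overlapped (exact permutation p = 0.533). Hlf alone was expected in 12 and 11.6% in young and 13.4 to 17.9% in older mice, against 6.41 to 9.95% of Mpo-positive cells over all mice. The 2 were closest in the middle_aged female (11.2 against 9.95%). Mecom was expected in 9.36 and 7.92% in young and 7.60 to 11.7% in older mice, against 1.57 to 4.14% of Mpo-positive cells. Procr, at 0.0983 to 2.14%, was at the level of Mpo-positive cells (0.669 to 1.73%) and is not read as expression, though it counts in the share of the 3 genes. Cells with no raw UMI of the 3 genes made up 1.64 and 1.83% of all passing cells in young and 1.63 to 3.94% in older mice, and the old male was then below both young mice. Within them 17 genes rose and 10 fell in older mice.

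The age difference of several genes chosen above by their rise was seen at each level of Pf4. As the steps are parts of the same counts, this is no further evidence of the rise. In cells with 50 or more Pf4 UMIs, Aldh1a1 was at 16.2 and 29.3 CPM in young and 83.0 to 114 CPM in older mice, and in those with 3 to 9 at 20.2 and 29.3 against 53.5 to 107 CPM. Clca3a1, Nupr1, Selp, Gng11 and Plscr2 likewise lay above both young mice in the 4 older mice at each of the 3 steps. Clec1b did so only in the step of 50 or more, where it was at 15.3 and 22.8 CPM in young and 25.6 to 58.6 CPM in older mice, and was at 5.95 CPM or less in the lowest step. Vim was below both young mice in all 4 older mice in the step of 50 or more (98.3 and 77.2 against 34.6 to 58.8 CPM) but in 2 of 4 at 10 to 49 UMIs. Cd9 was above both young mice in 3 of 4 older mice at 3 to 9 UMIs and in all 4 at the other steps. Mmrn1 was so in 3 of 4 at 10 to 49 UMIs and in all 4 at the other steps. The share of cells in the lowest step was 30.5 and 25.6% in young and 21.9 to 25% in older mice.

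The last comparison asks whether the age differences of these cells were those of their neighbours. The interaction of cell class and age was tested with edgeR on sums per mouse and class. Stem-like cells were chosen in part by Procr, a gene that earlier results had higher in older stem-like cells. The cells of that class may therefore differ between the ages. Against stem-like cells, the difference between older and young mice was more positive in Pf4+ Itga2b+ cells for 22 of 11470 genes (0.192%) and more negative for 49 (0.427%). Nupr1, Clca3a1 and Apoe are on the list of genes picked because earlier results of these data had them higher in older stem-like cells. A more negative difference was thus favoured in advance for these genes. Nupr1 rose by 5.33 in stem-like cells and by 1.94 in Pf4+ Itga2b+ cells, a difference of -3.19 (edgeR adjusted p = 0.00028). In young mice Nupr1 was at 1.6 and 5.4 CPM in stem-like cells, and in older mice at 90.2 to 194 CPM. Clca3a1 rose by 5.33 against 2.13 (difference -2.94, edgeR adjusted p = 0.0070), and Gng11 by 1.53 against 0.72 (-0.80, 0.0088). The fitted rise of Clca3a1 in stem-like cells rests on low young levels, 0.599 and 0.812 CPM. In CPM its mean went from 0.706 to 28.4 in stem-like cells and from 8.98 to 43.0 in Pf4+ Itga2b+ cells. For Aldh1a1 the rises of 2.81 and 1.96 were not shown to differ (edgeR adjusted p = 0.23), nor were those of Selp, 2.74 and 1.18 (0.13).

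Of the platelet lists, 2 of 10 granule genes, 1 of 13 receptors and 1 of 11 signalling genes were more negative in Pf4+ Itga2b+ cells than in stem-like cells, where 0.427% of all genes were. Treml1, Gp5 and Gp9 did not pass in stem-like cells (edgeR adjusted p = 0.64, 0.23 and 0.12). Vwf went from 3.7 and 4.8 CPM in young to between 29.7 and 45.6 CPM in older stem-like cells, a rise of 3.13 against a difference of 0.72 that did not pass in Pf4+ Itga2b+ cells (interaction -2.30, edgeR adjusted p = 3.0e-05). Cavin2, a caveolar coat protein on none of these lists, rose by 5.06, where the difference in Pf4+ Itga2b+ cells was 0.45 (-4.54, 0.00015). Itgb3 rose by 2.70, where it was 0.26 (-2.33, 0.00049), and Mmrn1 by 1.97, where it was 0.67 (-1.24, 0.00049). Young stem-like cells were low in Cavin2 (1.6 and 1.8 CPM), Itgb3 (2.1 and 3.7 CPM) and Vwf (3.7 and 4.8 CPM), on which these fitted rises rest. The mean of Cavin2 went from 1.71 to 57.4 CPM in stem-like cells and from 202 to 277 CPM in Pf4+ Itga2b+ cells. That of Vwf went from 4.2 to 37.6 CPM and from 77.7 to 128 CPM. On the CPM scale both genes thus differed more with age in Pf4+ Itga2b+ cells. Trim47 (-1.97) and Txnip, a thioredoxin inhibitor (-1.01), rose in stem-like cells and did not pass in Pf4+ Itga2b+ cells. Apoe had opposite changes, a rise of 1.40 in stem-like cells and a fall of 0.50 in Pf4+ Itga2b+ cells (difference -1.89, edgeR adjusted p = 1.5e-05). Apoe in stem-like cells was at 253 and 291 CPM in young and 595 to 797 CPM in older mice.

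In the other direction stood 5 of 18 genes of the G2 and M phases, Birc5, Cdc20, Cenpf, Hmmr and Mki67, whose age differences were more positive in Pf4+ Itga2b+ cells by 0.66 to 0.85, where 0.192% of all genes were more positive (edgeR adjusted p from 0.025 to 0.049). Mki67 was at 339 and 340 CPM in young and 282 to 367 CPM in older Pf4+ Itga2b+ cells, whereas in stem-like cells it was at 146 and 205 CPM in young and 53.2 to 183 CPM in older mice. Of 5 class II genes, 4 were more negative in Pf4+ Itga2b+ cells, Cd74, H2-Aa, H2-Ab1 and H2-Eb1. Without the cell with the most Cd74, Cd74 alone of these passed (-1.34, edgeR adjusted p = 0.034) and H2-Aa, H2-Ab1 and H2-Eb1 did not (0.16, 0.38 and 0.38). The number of genes that differed was 8 without the young female, 13 without the young male and 182 without the very_old female. Apoe, Trim47, Vwf and Txnip passed without each of the 6 mice, Cavin2 was lost without the young male (edgeR adjusted p = 0.068), and Cd74 without the young female (-1.54, edgeR adjusted p = 0.22).

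Against Gata1 Gata2 precursors, 2 of 11064 genes were more positive (0.0181%) and 9 more negative (0.0813%). Apoe did not pass in precursors, where it was at 1521 and 1580 CPM in young and 1413 to 1873 CPM in older mice, and the difference of -0.61 passed (edgeR adjusted p = 5.5e-07). Cavin2 rose by 1.92 in precursors, where it was 0.45 in Pf4+ Itga2b+ cells (difference -1.47, edgeR adjusted p = 0.00012), from 6.4 and 7.7 CPM to between 17.3 and 35.9 CPM. Vim (-0.55, edgeR adjusted p = 0.011) and Hist1h2ac (-0.96, 0.050) were more negative in Pf4+ Itga2b+ cells, and Tmsb4x, an actin-sequestering peptide, was more positive (0.24, 3.2e-05). For Gm26737, a predicted gene, both young mice were at 0 UMIs in Pf4+ Itga2b+ cells, so the fitted difference has no size that can be read. Without the young female 0 of these differences passed with edgeR, beside 531 genes at an unadjusted p under 0.05, and without the young male 1 did. That 1 was Cd74 (-4.01), where 1 cell holds most Cd74 UMIs of the young female, whereas Apoe, Vim, Cavin2 and Tmsb4x were lost. Without the cell with the most Cd74, Cd74 (-1.19, edgeR adjusted p = 0.63), H2-Aa (-0.62, 0.95) and Hist1h2ac (-0.97, 0.053) no longer passed. The age differences in precursors were 2.83 for Aldh1a1, 3.30 for Nupr1 and 2.36 for Clca3a1, larger than in Pf4+ Itga2b+ cells, and 0.83 for Selenom, 0.53 for Mt1, 0.32 for Ifitm1 and 0.20 for Cited4, smaller than there. None of these 7 interactions passed.

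**Figure D5:**
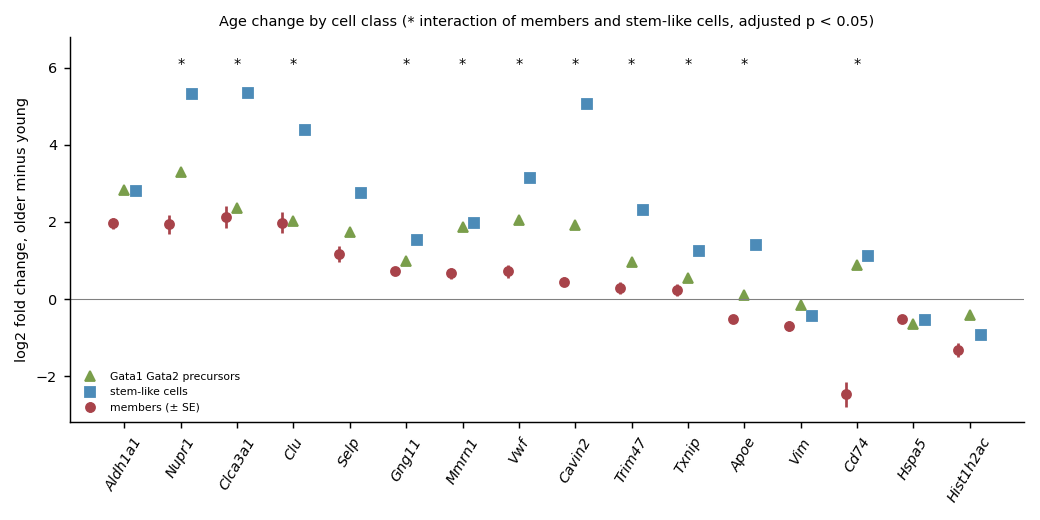
Log2 fold change of older against young mice for 16 genes in Pf4+ Itga2b+ cells (members, with SE), in stem-like cells and in Gata1 Gata2 precursors. Stars mark genes whose change differed between Pf4+ Itga2b+ and stem-like cells in the edgeR interaction test, such as Vwf (0.72 against 3.13) and Apoe (-0.50 against 1.40). The rise of Vwf in stem-like cells rests on low young levels, 3.7 and 4.8 CPM. The value of Cd74 in Pf4+ Itga2b+ cells rests on 1 cell of the young female.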

How the data were processed

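Lineage- c-Kit+ bone marrow cells of 8 mice were profiled by droplet single-cell RNA sequencing. The authors made UMI counts per gene and cell with Cell Ranger, and the deposited matrices hold these counts without normalization. The file headers name Cell Ranger 6.0.0 and the submitters' processing notes the build mm10, whereas the study's methods name a later version and the labels differ on the version of the 10x kit.

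Cells with 1000 or more UMIs and under 10% mitochondrial UMIs were kept, and Pf4+ Itga2b+ cells were chosen by raw UMIs. The cells and gene lists were chosen with earlier results of these data known. No doublet caller was run. Cells with many UMIs of other lineages, or above the 90th percentile of UMIs, were left out as alternatives. Cells were not treated as replicates. Counts were summed per mouse and tested with edgeR 4.0.16 (R 4.3.3), with age and sex as terms, genes of low count filtered, TMM scaling, 3 residual degrees of freedom and Benjamini-Hochberg adjustment at 0.05. Interactions were fitted on the sums of 2 classes of the same mice, with the mouse as a block. Pf4, Itga2b and Car1 were left out of all counts of calls. On simulated counts of 10524 genes for older against young mice, 68% of genes changed 2-fold and 96% of those changed 4-fold were recovered, with 10 false calls. Shares of cells with a UMI were computed as the expectation after thinning to 5500 UMIs with scipy 1.17.1, and compared by exact two-sided permutation tests.

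Genes were named by a fixed rule. It took the marker genes, the 12 largest rises and falls (7 falls qualified) of called genes with a mean of 20 CPM or more and no overlap of older with young mice, called members of the lists, and the smallest p-values of each interaction. Gene positions came from GENCODE for GRCm38, in which 32158 of 32285 features were matched, and promoters from RefSeq GRCm38.p6. Alternatives were DESeq2 1.42.0, its size factors, no filter, no sex term, other limits on the cells and leaving out each mouse.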

Additional observations from a re-analysis of the deposited data

Results flagged for a closer look

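A value of 1 mouse stood apart from those of the other 3 older mice in 2 of 42 sets of 4 values examined by Dixon's ratio. Chance gives about 1 in 20. The sets were the named genes that did not choose the cells, the share of the cells and the share with a stem-cell transcript. Gp9 had a ratio of 0.835, with the very_old male highest at 95.1 CPM, and Txnip had 0.845, with the old male highest at 229 CPM.

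Differences of the age change between Pf4+ Itga2b+ and stem-like cells, on the log2 scale and by the edgeR interaction test, were -1.89 for Apoe, -1.97 for Trim47, -2.30 for Vwf, -1.01 for Txnip, -4.54 for Cavin2, -3.19 for Nupr1, -1.24 for Mmrn1, -2.94 for Clca3a1, -0.80 for Gng11 and -2.19 for Clu. They were -3.69 for Cd74, -2.16 for H2-Aa, -1.89 for H2-Eb1 and -0.83 for H2-Ab1, where 1 cell of the young female holds most Cd74 UMIs. The immediate early genes Jun and Jund had -1.12 and -0.72. Apoe, Nupr1 and Clca3a1 had been picked for a rise in older stem-like cells of these data, which favours negative values for them. The genes of the G2 and M phases had 0.75 for Cdc20, 0.85 for Birc5, 0.85 for Hmmr, 0.77 for Cenpf and 0.66 for Mki67.

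Against Gata1 Gata2 precursors the differences were -0.61 for Apoe, -3.14 for Cd74, 0.24 for Tmsb4x, -1.47 for Cavin2, -0.55 for Vim, -1.81 for H2-Aa and -0.96 for Hist1h2ac. Those of Cd74, H2-Aa and Hist1h2ac no longer passed without the cell with the most Cd74, with edgeR adjusted p of 0.63, 0.95 and 0.053. The value of 9.31 for Gm26737 comes from young Pf4+ Itga2b+ cells without a UMI and depends on the prior count.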

How the results depend on the processing

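Direction held for each of 27 named genes called in older against young mice under all alternatives tried, but 133 of 484 pairs of gene and alternative lost the call. Clca3a1, Aldh1a1, Gng11 and Plscr2 were called under each. Without the sex term 15 of the 27 lost the call, among them Apoe, Hspa5, Cd9, Mmrn1, Mt1, S100a6 and Ifitm1. The cause of the differing counts was not tested. The 39 rises in older mice numbered 14 with DESeq2, 113 without the filter on low counts, 20 without the sex term, 17 in cells without a stem-cell UMI, 6 in cells with under 5 UMIs of other lineages and 87 without the limit on Car1. The 11 falls numbered 4, 56, 3, 10, 2 and 20 in the same order, 21 with Pf4 of 10 or more, 23 after thinning to 5000 UMIs and 17 without the cells above the 90th percentile of UMIs. The limit on Car1 and the cell with the most Cd74 were alternatives chosen after seeing the data.

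With DESeq2, no filter and no sex term, rises were 2, 42 and 4 in middle_aged mice, 5, 92 and 9 in old mice, and 10 and 142 with the first 2 in very_old mice. Falls were 0, 42 and 1 in middle_aged mice, 2, 23 and 0 in old mice, and 9, 76 and 6 in very_old mice. Beside the 2 counts of 0 stood 60 and 238 genes at an unadjusted p under 0.05. Without the filter 235 genes differed from stem-like cells and 38 from precursors, and 6 from precursors without the cell with the most Cd74. Gp5 reversed to 0.0414 in cells without a stem-cell UMI and to 0.0458 with equal numbers of cells, and Trim47 to -0.0128 in the former.

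Leaving out 1 mouse gave 13 to 64 rises and 7 to 31 falls in older mice, 1 to 17 and 0 to 11 in middle_aged mice, 5 to 39 and 1 to 17 in old mice, and 17 to 52 and 8 to 31 in very_old mice. It gave 8 to 182 differences from stem-like cells and 0 to 40 from precursors. The share differed by 1.56 to 2.53 points and that of stem-cell transcripts by 3.59 to 5.71. The labels give no replicate numbers to pair mice by, and sex was a term of each fit except the one without it. Depth limits genes of few UMIs, such as Plscr2 in young mice.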
